A study of Mus musculus with 8 samples.

Results

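The genes that interferons induce, together with the sensors of foreign or misplaced nucleic acids, were followed here in hearts of mice with a muscle-specific knockout of mtSSB, the mitochondrial single-stranded DNA-binding protein encoded by Ssbp1. The module was chosen by name and holds 33 genes, all of which were found among the 55383 rows of the expression table and all of which passed the filter on low values, among 14522 genes tested. The hearts were those of 2 tissue-specific knockout mice (L/L, cre) and 2 control mice (L/L) on an inbred C57BL/6N background, collected at 5 weeks of age. Knockout mice carried loxP-flanked Ssbp1 alleles with exon 3 targeted and a Cre recombinase driven by the muscle creatine kinase promoter (Ckmm-cre). The sample labels give these genotypes only as Ssbp1-/- for the knockouts and Ssbp1+/+ for the controls. Because Cre is made in cardiomyocytes and skeletal muscle, the endothelial cells, fibroblasts and leukocytes of a knockout heart were not targeted. RNA came from total hearts, so that fewer cells of a type and less RNA per cell cannot be told apart in any value below.

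Nucleic acids that leave mitochondria can be read as foreign. In the cytosol, RIG-I (Ddx58) and MDA5 (Ifih1) bind double-stranded RNA and signal through MAVS on the mitochondrial outer membrane, whereas cGAS binds DNA and signals through STING. Both routes activate the kinase TBK1 and the transcription factors IRF3 and IRF7, which switch on type I interferon genes. Secreted interferon then acts through its receptor and a complex that contains STAT2 and IRF9 and binds the interferon-stimulated response element (ISRE) in the promoters of antiviral genes. Levels of these antiviral genes are therefore commonly used as a readout of mitochondrial DNA or RNA sensing.

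Many promoters of the module carried the sequence element by which such genes are usually recognized. RefSeq promoters on GRCm38.p6, 250 bases before to 50 bases after a start site, were at hand for 26 of the 33 genes. The ISRE core GAAANNGAAA, searched on both strands and counted whether or not matches overlapped, was found in 13 of these 26 genes (50%), against 3.99% of the 27025 genes with a promoter of that length. The gamma-activated sequence, GAS (TTCNNNGAA, which reads alike on both strands), was found in 7 of 26 genes (26.9%), against 9.55% of all genes. A match describes the letters only and is not evidence of binding. The 250 bases before the start site of Rsad2, on the minus strand at chr12:26456453-26456702, are shown because this gene had the lowest p-value of the module, with the core match at position -120, which lies on the opposite strand, in capitals.
Rsad2: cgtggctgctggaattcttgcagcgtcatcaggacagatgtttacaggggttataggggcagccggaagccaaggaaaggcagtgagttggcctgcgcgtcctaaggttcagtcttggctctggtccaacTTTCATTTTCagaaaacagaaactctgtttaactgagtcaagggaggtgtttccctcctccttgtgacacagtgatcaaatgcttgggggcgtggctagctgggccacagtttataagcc

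Stretches of 40 bases around the core are shown for 4 further genes, with capitals marking bases inside a match. Isg15 (chr4:156200860-156200899, minus strand) and Ifit3 (chr19:34583392-34583431, plus strand) had non-overlapping groups with knockouts higher, whereas Ifit1 (chr19:34640789-34640828, plus strand) and Stat2 (chr10:128270261-128270300, plus strand) carried the same core without being higher in knockouts.
Isg15: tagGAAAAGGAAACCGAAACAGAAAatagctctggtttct
Ifit3: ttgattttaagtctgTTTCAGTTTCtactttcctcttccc
Ifit1: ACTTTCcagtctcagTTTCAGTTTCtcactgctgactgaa
Stat2: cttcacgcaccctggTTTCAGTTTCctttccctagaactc
In Isg15, 3 overlapping matches form the run of capitals, and in Ifit1 the capitals at the left edge are the end of a second match that starts before the stretch.

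**Figure D1:**
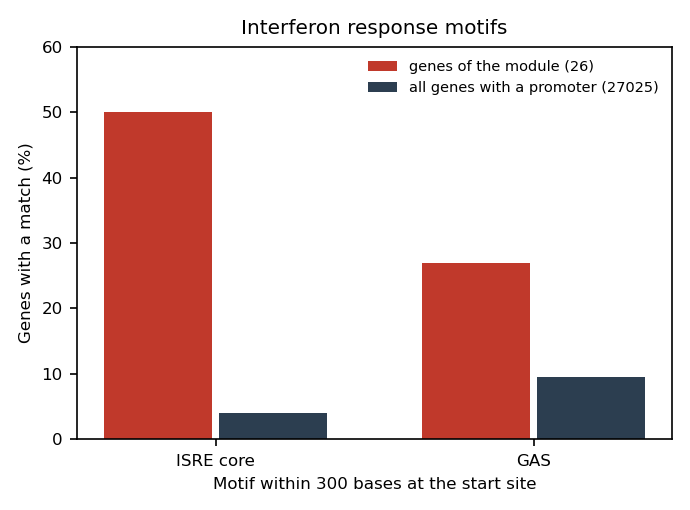
Share of genes (%) with at least 1 match to the ISRE core or to GAS within the promoter window, for the 26 genes of the module with a promoter and for all 27025 genes with one. For the ISRE core the bars stand at 50% and 3.99%, and for GAS at 26.9% and 9.55%.

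Depth was 25558246 and 25682093 reads in knockout hearts and 24067849 and 19716305 in control hearts, of which 58.0% and 56.2% in knockouts and 62.7% and 66.7% in controls were mitochondrial. Values are counts normalized by library, with 1 read worth 0.765 to 1.35 normalized counts, so the reads behind a value scale with it in each library. The 2 hearts of each group differed from each other by more than sampling noise. Ssbp1 itself had 170 and 163 normalized counts in knockout hearts and 177 and 216 in control hearts. The groups did not overlap, but the difference was small (log2 fold change -0.23 ± 0.16 SE, adjusted p = 0.890, limma). A count over the whole gene still holds reads from the exons that were not deleted and from cells without Cre, and is therefore a weak check of the labels.

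None of the genes of the module passed the threshold between knockout and control hearts (0 of 33, adjusted p under 0.05 in limma over all 14522 genes), where 0.117% of all genes passed. The counts at an unadjusted p under 0.05 were 5 of 33 genes (15.2%) in limma, 2 with knockouts higher and 3 with knockouts lower, against 6.11% of all genes. On reads recovered from the normalized counts, edgeR and DESeq2 also called 0 of the 33, with 5 and 2 genes at an unadjusted p under 0.05. The share of all genes at that unadjusted cut was counted for limma only, so these counts have no background to be read against. Fold changes of the module on the log2(normalized count + 1) scale ran from -0.94 to 0.84 with a median of 0.06, against a median of 0.0024 and a 5th to 95th percentile range of -0.57 to 0.55 over all genes. The sign was positive for 21 genes and negative for 12. Errors given below are standard errors from limma, with 2 hearts in each group.

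By the plain order of the 4 hearts, both knockouts were above both controls for 9 genes (27.3%, against 18.1% of all genes tested) and below both controls for 4 genes (12.1%, against 17.5%). Those with knockouts higher were Rsad2, Usp18, Isg15, Ifit2, Ifit3, Oasl2, Mx2, Ifi44 and Xaf1. In mice 585H and 586H, left out for contradictory labels, Rsad2, Usp18, Isg15, Ifit2, Ifit3, Oasl2 and Ifi44 were below both controls. Mx2 was above both controls in mouse 585H, and Xaf1 in mouse 586H. The 4 with knockouts lower were Stat2, Ifi27, Ifitm3 and Psmb9, and the groups of the other 20 overlapped. For 27 of 33 genes the 95% interval of the fold change lay within 2-fold in both directions, 5 intervals reached above a 2-fold rise and 3 below a 2-fold fall.

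**Figure D2:**
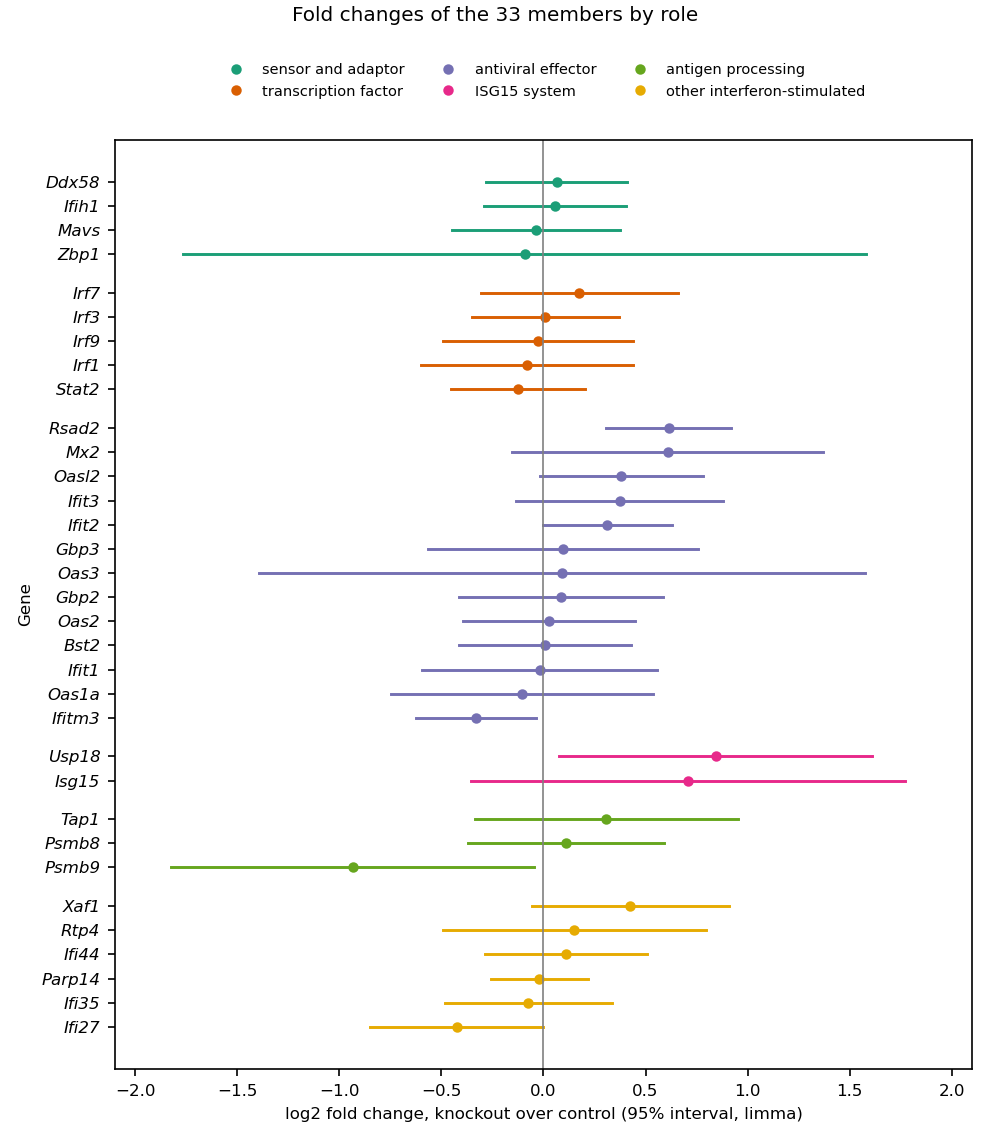
Log2 fold change, knockout over control, of the 33 genes (points) with the 95% interval from limma (lines), grouped and coloured by role, with 0 as the vertical line. Only the intervals of Rsad2, Usp18, Ifitm3, Psmb9 and Ifi27 lie to 1 side of 0, and none of the 33 passed after adjustment over all genes.

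For the sensors and their adaptor the groups overlapped. Ddx58 (chr4:40203773-40239828), the RNA sensor RIG-I, had 268 and 319 normalized counts in knockout hearts and 279 and 280 in control hearts. Ifih1 (chr2:62595798-62646255), which encodes MDA5, the sensor of long double-stranded RNA, had 241 and 272 in knockout hearts and 260 and 234 in control hearts. For both genes, knockout 2 was the highest of the 4 hearts. Their fold changes were 0.06 ± 0.14 SE for Ddx58 (95% interval -0.28 to 0.41, adjusted p = 0.968, limma) and 0.05 ± 0.14 for Ifih1 (-0.29 to 0.40, adjusted p = 0.969, limma). Mavs, the adaptor that both sensors share, had 769 and 636 in knockout hearts and 826 and 624 in control hearts. The controls enclosed both knockouts, and the fold change was -0.04 ± 0.17 SE (adjusted p = 0.983, limma). Zbp1, a sensor of left-handed double-stranded nucleic acids, was low at 14.8 and 7.65 in knockout hearts and 6.84 and 18.9 in control hearts. With 7 to 18 reads a library, its interval ran from -1.77 to 1.58 and could not show a change of 2-fold.

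The 5 transcription factors of the response had fold changes of both signs, and none passed the test. Irf7, which amplifies interferon production and is itself interferon-induced, had 147 and 161 normalized counts in knockout hearts and 157 and 117 in control hearts. Control 2 was the lowest and the other 3 hearts lay close together (fold change 0.18 ± 0.20 SE, adjusted p = 0.933, limma). Stat2, a subunit of the ISRE-binding complex, had 245 and 239 in knockout hearts and 250 and 278 in control hearts, with both knockouts below both controls by a small margin (-0.12 ± 0.13 SE, adjusted p = 0.926, limma). Irf9, the DNA-binding partner of STAT2, had 203 and 275 in knockout hearts and 222 and 263 in control hearts. Irf3, which is activated by phosphorylation rather than by its level, had 250 and 215 in knockout hearts and 222 and 240 in control hearts. Irf1, a factor induced mainly by interferon gamma, had 245 and 183 in knockout hearts and 194 and 259 in control hearts. For Irf9, Irf3 and Irf1 the groups overlapped, and the spread within each group exceeded the difference between the means.

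Among the 13 antiviral effectors, 10 had a positive fold change, with a median of 0.09, and 0 of 13 passed the test. At an unadjusted p under 0.05 in limma were 2 of the 13, against 6.11% of all genes tested. Rsad2, which encodes viperin, an enzyme that makes a chain-terminating nucleotide, lies at chr12:26442746-26456452 (GRCm38, minus strand). It had 455 and 521 normalized counts in knockout hearts and 321 and 315 in control hearts. Both knockouts were clearly above both controls, and the controls were nearly equal. Mice 585H and 586H, which were left out because their labels contradict each other, had 251 and 202, below both controls. The titles and the genotype fields each name a knockout among these mice, so the separation holds for the 4 compared hearts only. The level was 1.53-fold higher in knockouts (95% interval 1.24 to 1.89, log2 fold change 0.61 ± 0.13 SE), yet its adjusted p in limma was 0.499. Over the alternatives the adjusted p ran from 0.216 by DESeq2 to 0.9999 in limma without knockout 2. The neighbouring Cmpk2, an interferon-induced mitochondrial nucleotide kinase named here after its values were seen, had 146 and 165 in knockout hearts and 157 and 155 in control hearts.

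The IFIT genes lie in a cluster on chromosome 19 and differed among themselves. Ifit2 had 273 and 267 normalized counts in knockout hearts and 219 and 216 in control hearts. Within each group the hearts were nearly equal, and the groups were apart (log2 fold change 0.31 ± 0.13 SE, adjusted p = 0.806, limma). Ifit3 had 186 and 174 in knockout hearts and 116 and 166 in control hearts. Its groups did not overlap, but control 2 lay close to the knockouts and control 1 far below (0.37 ± 0.21 SE, adjusted p = 0.837, limma). Without control 1 the difference was 0.12, and without control 2 it was 0.63. Ifit1 had 109 and 84.2 in knockout hearts and 84.1 and 112 in control hearts. Here the groups covered the same range (-0.02 ± 0.24 SE, adjusted p = 0.994, limma). Ifit3 has a close copy, Ifit3b, with 63.4 and 55.1 in knockout hearts and 46.9 and 57.9 in control hearts, and the split of shared reads between such copies is an estimate.

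The OAS genes encode or resemble enzymes that make 2′-5′ oligoadenylate, the activator of RNase L. Oasl2 had 204 and 186 normalized counts in knockout hearts and 162 and 137 in control hearts. All 4 hearts kept the order of the groups (log2 fold change 0.38 ± 0.16 SE, adjusted p = 0.806, limma). The other OAS genes of the module did not share this order. Oas1a had 42.0 and 55.8 in knockout hearts and 51.8 and 52.5 in control hearts, and Oas2 had 146 and 132 in knockout hearts and 126 and 147 in control hearts. Oas3 was near the filter, with 7.41 and 13.0 in knockout hearts and 7.82 and 10.8 in control hearts. The groups overlapped for Oas1a, Oas2 and Oas3, and the interval of Oas3 (-1.39 to 1.58) could not show a change of 2-fold.

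Mx2, a dynamin-like GTPase annotated as a polymorphic pseudogene in this mouse genome, had 39.5 and 34.4 normalized counts in knockout hearts and 23.5 and 24.2 in control hearts. The groups were apart, on 45 to 48 reads in knockouts and 18 to 24 in controls (log2 fold change 0.61 ± 0.31 SE, adjusted p = 0.820, limma). Ifitm3 (chr7:141009586-141010770), which blocks the fusion of enveloped viruses with endosomes, went the other way, with 288 and 304 in knockout hearts and 382 and 364 in control hearts. Both knockouts were below both controls (-0.33 ± 0.12 SE, adjusted p = 0.798, limma). The guanylate-binding proteins, GTPases that attack the membranes enclosing pathogens, overlapped between the groups: Gbp2 had 244 and 177 in knockout hearts and 177 and 217 in control hearts. Gbp3 had 236 and 161 in knockout hearts and 148 and 226 in control hearts. Bst2, the tetherin that holds budding virions at the cell surface, also overlapped, with 116 and 111 in knockout hearts and 118 and 108 in control hearts.

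**Figure D3:**
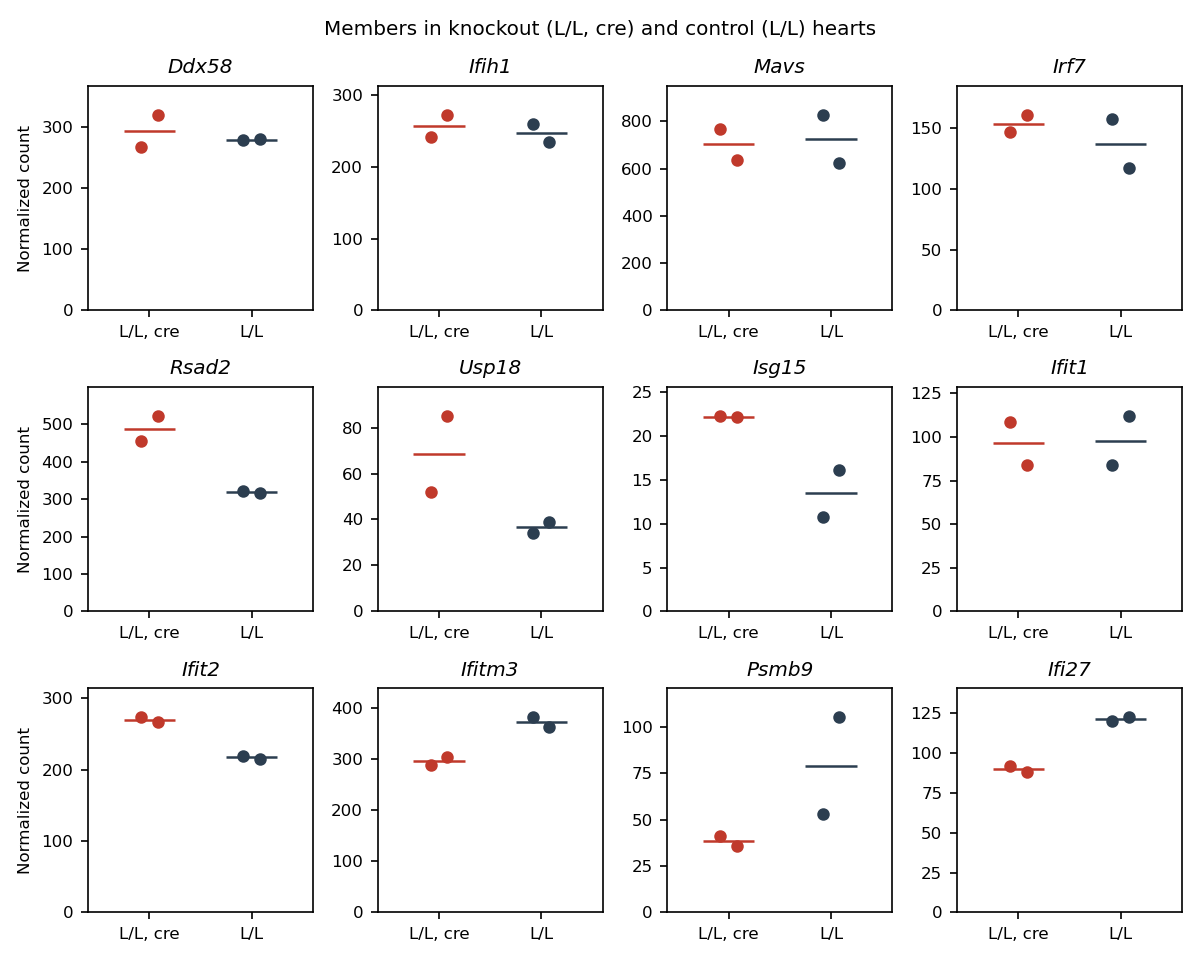
Normalized counts of 12 genes of the module in each heart (points, knockout L/L, cre on the left and control L/L on the right of each panel) with the mean of the group (horizontal line), each vertical axis starting at 0. The points of Rsad2, Usp18, Isg15 and Ifit2 do not overlap with knockouts higher, those of Ifitm3, Psmb9 and Ifi27 do not overlap with knockouts lower, and those of the sensors, Irf7 and Ifit1 overlap.

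Both genes of the ISG15 system, a ubiquitin-like modifier and its specific protease, were higher in both knockouts, with few reads behind them. Usp18 (chr6:121245906-121270917), the protease that removes ISG15 and also damps interferon receptor signaling, had 51.9 and 84.9 normalized counts in knockout hearts and 34.2 and 39.1 in control hearts. Knockout 2 stood far above the other 3 hearts, and knockout 1 was also above both controls. The change was 0.84 ± 0.32 SE on the log2 scale (95% interval 0.08 to 1.61, adjusted p = 0.798, limma), the largest positive value of the module. Without knockout 2 it was 0.49. Isg15 (chr4:156199424-156200818), the modifier, had 22.2 and 22.2 in knockout hearts and 10.8 and 16.2 in control hearts. These values rest on 27 and 29 reads in knockouts and 11 and 12 in controls, and the interval of its fold change spanned 0 (0.71 ± 0.44 SE, -0.36 to 1.77, adjusted p = 0.864, limma). Without control 1 it was 0.44, and without control 2 it was 0.98.

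The 3 genes of antigen processing are neighbours on chromosome 17 and had fold changes of both signs. Psmb9 (chr17:34181987-34187764), a catalytic subunit of the immunoproteasome, had 41.2 and 35.96 normalized counts in knockout hearts and 52.8 and 105 in control hearts. Both knockouts were below both controls, but control 2 was far above control 1. Its fold change was the most negative of the module (-0.94 ± 0.37 SE, adjusted p = 0.804, limma), and depended on the control hearts, at -0.45 without control 2 and -1.43 without control 1. Tap1, whose first bases overlap those of Psmb9 on the opposite strand and whose protein carries peptides into the endoplasmic reticulum, had 199 and 119 in knockout hearts and 117 and 132 in control hearts. Psmb8, another immunoproteasome subunit, had 120 and 97.2 in knockout hearts and 105 and 95.7 in control hearts. For Tap1 and Psmb8, knockout 1 was the highest heart and the groups overlapped. The reads were counted by strand, which tells Psmb9 and Tap1 apart where they overlap.

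The other 6 interferon-stimulated genes also had mixed signs, 3 positive and 3 negative. Xaf1, an antagonist of inhibitors of apoptosis, had 178 and 135 normalized counts in knockout hearts and 121 and 109 in control hearts. The groups did not overlap, with knockout 1 well above the rest (log2 fold change 0.43 ± 0.20 SE, adjusted p = 0.815, limma), and the difference was 0.23 without that heart. Ifi27, an interferon alpha-inducible protein, had 92.3 and 88.0 in knockout hearts and 120 and 123 in control hearts. Both groups were tight and apart, with knockouts lower (-0.43 ± 0.17 SE, adjusted p = 0.806, limma). Ifi44 had 130 and 126 in knockout hearts and 117 and 120 in control hearts, a small difference without overlap. Rtp4, a Golgi chaperone of receptors, had 77.4 and 120 in knockout hearts and 94.8 and 79.5 in control hearts. Parp14, an ADP-ribosyltransferase, had 722 and 745 in knockout hearts and 751 and 738 in control hearts, and Ifi35 had 147 and 135 in knockout hearts and 138 and 159 in control hearts. The groups of Rtp4, Parp14 and Ifi35 overlapped, and Parp14 had the narrowest interval of the module (-0.26 to 0.22).

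Values were also set beside the presence of an ISRE core, meaning an exact match within the promoter window. The absence of an exact match does not show that a gene lacks an ISRE. The median log2 fold change was 0.06 over the 13 genes with a core in the promoter and 0.11 over the 13 without one, and the groups did not overlap with knockouts higher in 3 of the 13 genes with a core and 4 of the 13 without, where the share of all genes tested was 18.1%. Over all 388 tested genes with a core, 13 of them in the module, the median was 0.0032. In limma 0 of the 388 passed, where 0.117% of all genes tested passed.

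Individual hearts contributed unequally. The highest value of the 4 hearts was in knockout 1 for 12 genes, in knockout 2 for 9, in control 1 for 4 and in control 2 for 8, whereas over all genes tested the shares were 22.4%, 23.8%, 25.6% and 28.2%. For 16 of the 33 genes (48.5%, against 25.9% of all genes tested) knockout 1 exceeded knockout 2 and control 2 exceeded control 1. Gbp2, Gbp3, Irf1, Tap1, Zbp1 and Psmb9 were among these 16. The same order of hearts was seen outside the module in genes picked after their values were seen, such as Nlrc5, the transactivator of MHC class I genes, with 175 and 56.6 in knockout hearts and 64.5 and 193 in control hearts. Gbp4 had 406 and 191 in knockout hearts and 219 and 401 in control hearts, and Gbp6 had 386 and 196 in knockout hearts and 264 and 422 in control hearts. In these genes the difference between hearts of 1 group exceeded that between the groups. The order of hearts is a description, since the replicate numbers do not pair the mice.

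The wider pathway was examined with lists of genes outside the module. In each list 0 genes passed in limma, where 0.117% of all genes tested passed. Of 71 other interferon-stimulated genes, 64 could be tested, with a median log2 fold change of 0.05. An unadjusted limma p under 0.05 was seen in 4 with knockouts higher and 1 with knockouts lower. The share of all genes tested, in either direction, was 6.11%. Both knockouts were above both controls in 16 of the 64 genes (18.1% of all genes tested) and below both in 7 (17.5%). Znfx1, an RNA helicase that senses viral RNA at mitochondria, had 844 and 771 normalized counts in knockout hearts and 582 and 645 in control hearts (0.40 ± 0.11 SE, adjusted p = 0.680, limma). Trim30a, a ubiquitin ligase family member, had 250 and 289 in knockout hearts and 203 and 193 in control hearts. In Znfx1 and Trim30a both knockouts were above both controls.

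Cgas and Tmem173, the DNA sensor and its adaptor STING, had both knockouts below both controls. Over 28 genes of DNA and RNA sensing the median was -0.03, both knockouts were above both controls in 3 genes and below both in 8 (18.1% and 17.5% of all genes tested), and 1 gene had an unadjusted limma p under 0.05 in each direction. Cgas had 16.5 and 16.1 normalized counts in knockout hearts and 34.2 and 25.6 in control hearts (-0.83 ± 0.38 SE, adjusted p = 0.809, limma). Tmem173 had 45.3 and 64.3 in knockout hearts and 71.3 and 72.7 in control hearts. Unc93b1, the chaperone of endosomal Toll-like receptors, had 135 and 147 in knockout hearts and 170 and 230 in control hearts (-0.49 ± 0.19 SE, adjusted p = 0.806, limma). For Unc93b1 both knockouts were again below both controls. Tbk1, the kinase shared by the MAVS and STING routes, had 225 and 226 in knockout hearts and 179 and 178 in control hearts, with each pair of hearts nearly equal (0.34 ± 0.14 SE, adjusted p = 0.806, limma).

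Interferon transcripts themselves were hardly detected. Ifnb1, Ifna1, Ifna2, Ifna4, Ifnk, Ifng, Ifnl2 and Ifnl3 were listed at 0 in all 4 hearts, and Ifne had 1 read in control 1 only. A count of 0 allows up to 3 reads, or 2.30 to 4.04 normalized counts by library, for counting error only. Of 24 genes of interferons, their receptors and JAK-STAT signaling, 14 could be tested, with a median of 0.06. Against 6.11% of all genes tested, 2 of the 14 had an unadjusted limma p under 0.05, both with knockouts higher. Ptpn6, which was among them and encodes a phosphatase that restrains JAK-STAT signaling, had 98.9 and 74.2 in knockout hearts and 55.7 and 47.2 in control hearts. Ifnar1, a subunit of the type I interferon receptor, had 400 and 441 in knockout hearts and 421 and 319 in control hearts, and its groups overlapped.

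Erap1 and Lonp1 had the lowest p-values over the lists. Over 17 genes of MHC class I presentation and the immunoproteasome the median was -0.04. Erap1, which trims peptides for MHC class I, had 450 and 456 normalized counts in knockout hearts and 760 and 1013 in control hearts, with the groups far apart (-0.95 ± 0.15 SE, adjusted p = 0.261, limma). Among 12 tested genes tied to the release of mitochondrial nucleic acids, which had a median of 0.11, Lonp1, the matrix protease that degrades TFAM, had 1843 and 1594 in knockout hearts and 1057 and 1106 in control hearts (0.66 ± 0.11 SE, adjusted p = 0.259, limma). By DESeq2 on the recovered reads both Erap1 and Lonp1 passed. Tfam, which packages mitochondrial DNA, had 394 and 353 in knockout hearts and 237 and 303 in control hearts, and Vdac3, an outer membrane channel, had 2389 and 2408 in knockout hearts and 1927 and 2075 in control hearts. Lonp1, Tfam and Vdac3 were the only genes of the list at an unadjusted limma p under 0.05, against 6.11% of all genes tested. In each of them both knockouts were above both controls. That order held for 6 of the 12 genes (18.1% of all genes tested), and the reverse for 1 (17.5%). Over 16 tested genes that clear nucleic acids or restrain sensing the median was 0.10, and only Banf1, which coats cytosolic DNA, had an unadjusted limma p under 0.05, with 246 and 197 in knockout hearts and 161 and 168 in control hearts.

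**Figure D4:**
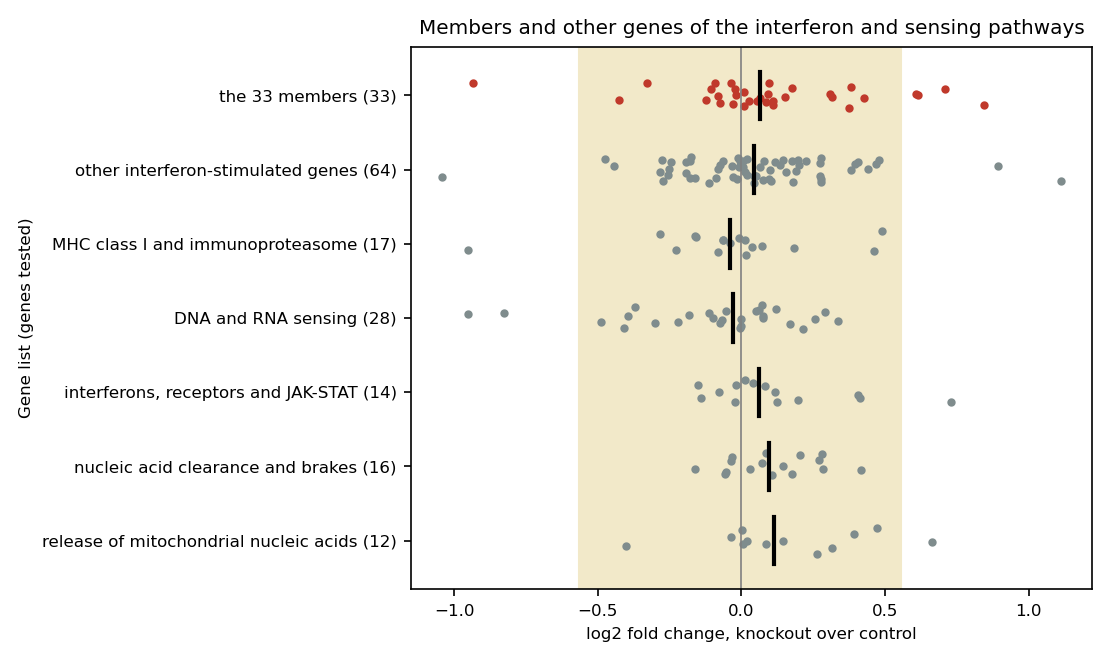
Log2 fold change, knockout over control, of each tested gene of the module (top row) and of 6 lists of pathway genes outside it (points), with the median of each row (black line) and the 5th to 95th percentile range of all genes tested, -0.57 to 0.55 (shaded). All 7 medians lie between -0.04 and 0.11, and most points of each row lie within the shaded range.

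Cells other than cardiomyocytes express much of this pathway, and their markers differed between hearts. Summed normalized counts of 10 macrophage markers were 3560 and 3586 in knockout hearts and 4952 and 3672 in control hearts. Of the 10, 7 were lower, and 2, Lyz2 and Cd68, had an unadjusted limma p under 0.05 (6.11% of all genes tested). The sum of 7 fibroblast markers was 11226 and 13734 in knockout hearts and 15375 and 14333 in control hearts. Of the 7, 6 were lower and 1 was higher, with 0 of 7 at an unadjusted limma p under 0.05. The higher one, Tcf21, had 56.0 and 49.7 in knockout hearts and 42.0 and 45.8 in control hearts. The groups of Col3a1, at 4299 and 6298 in knockout hearts and 6646 and 6092 in control hearts, overlapped. The sum of 7 endothelial markers overlapped between the groups, at 10891 and 12075 in knockout hearts and 11477 and 10419 in control hearts, with 0 of 7 at an unadjusted limma p under 0.05. Erythroid markers stood out in knockout 2, with sums of 14926 and 41866 in knockout hearts and 18944 and 14398 in control hearts. Both macrophage and fibroblast sums were lower in knockouts without overlap, by a narrow margin between knockout 2 and control 2. Stat2, Ifi27, Ifitm3 and Psmb9 of the module, and Cgas, Tmem173, Unc93b1 and Erap1 outside it, were also lower in both knockouts. In the module 9 genes were higher in both knockouts. The part of cell composition in these values was not tested. Sums for T cell, B cell, NK cell and neutrophil markers were at most 55.1 in any heart. Of the plasmacytoid dendritic cell markers, Klk1 was at 0 in all hearts, Siglech at 4.94 or below and Ccr9 at 1.35 or below, while Tcf4, which is widely expressed, had 2439 and 2946 in knockout hearts and 2660 and 2619 in control hearts. The labelled tissue was checked with 8 cardiomyocyte markers, whose sum was 518647 and 493943 in knockout hearts and 511705 and 487923 in control hearts.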

How the data were processed

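RNA of total hearts was sequenced as strand-specific TruSeq libraries. According to the submitters' notes and the study's methods, the authors used STAR 2.7.3a for alignment to GRCm38.p6, in which nuclear copies of mitochondrial sequence were masked, quantified genes with Salmon 1.1.0 and scaled the counts with DESeq2 1.26.0. The deposited values are a signal per gene, namely counts divided by a library factor. In each library 100% of values were whole multiples of 1 read (tolerance 0.001), which gave back the reads. A second deposited table holds the authors' own comparison and was not used.

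Genes with at least 10 normalized counts in 2 or more of 4 libraries (14522) were tested on the log2 scale after adding 1, by limma 3.58.1 (R 4.3.3) with its trend option, two-sided. Benjamini-Hochberg adjustment ran over these genes, with a threshold of 0.05. The study's methods name DESeq2 on counts summarized from Salmon, and here edgeR 4.0.16 and DESeq2 1.42.0 served as alternatives on the recovered reads. Other alternatives were pseudocounts of 0.5 and 5, a filter of 50 or of any value above 0, a robust or trend-free fit, other scalings, a replicate block and leaving out each heart. The fits were tested on simulated data. Nothing in the labels says whether the mice of a group were littermates. Mice 585H and 586H have labels that contradict each other on genotype and entered no test or fold change. Gene positions are from GENCODE vM21 on GRCm38, and promoters are from RefSeq. Per-heart values are given in full for the 10 genes with the smallest p and for Ddx58, Ifih1, Mavs, Irf7, Isg15 and Ifit1, and in brief for the others. In each pathway list up to 3 genes with the smallest p were named, except 1 gene that is not reported here. The genes of the module, the lists and the naming rule were chosen with earlier results of these data known.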

Additional observations from a re-analysis of the deposited data

Results flagged for a closer look

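Mice 585H and 586H entered no test or fold change, because their labels contradict each other on genotype. Most of their values for the module were low: 25 of the 33 genes were below all 4 compared hearts in both mice, against 8.79% of all genes tested. Above the highest control heart were 4 of their values. Irf3 had 246.56 normalized counts in mouse 585H and 254.86 in mouse 586H, against 239.8 in the higher control heart. Mx2 had 45.466 in mouse 585H, against 24.25 in the higher control heart. Xaf1 had 146.41 in mouse 586H, against 121.19 in the higher control heart. These are values of single hearts with no test.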

How the results depend on the processing

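None of the 33 genes was called in any of the 15 alternatives. Not all 33 passed the filter in each: 29 were tested with the filter of 50, 32 without knockout 1 or without knockout 2, and 31 without control 2. The count over all genes, 17, was 6 with any value above 0 as the filter, 6 without the trend, 30 with the replicate block and 62 by DESeq2, and 6 to 33 when 1 heart was left out; the cause was not tested. Shared replicate numbers gave a correlation of 0.31 between deviations of same-numbered hearts over only 2 pairs, which does not pair the mice. In the pathway lists DESeq2 called 2 genes, Erap1 (adjusted p = 7.0e-05) and Lonp1 (adjusted p = 3.76e-04), and leaving out 1 heart called 0 to 1, Erap1 without control 1 (adjusted p = 0.047), where the lone control heart is assumed to vary like the knockouts. When 1 heart was left out, the median of the 31 to 33 genes of the module that were tested ran from 0.045 to 0.12. Among the same genes, groups not overlapping numbered 14 to 16 with knockouts higher and 7 to 9 with knockouts lower. A group of 1 heart overlaps less by construction.

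The direction was kept by 13 genes in all alternatives in which each was tested. The other 20 changed direction only when 1 heart was left out, with these ranges of log2 fold changes: Bst2 -0.0586 to 0.0741, Ddx58 -0.0612 to 0.19, Gbp2 -0.14 to 0.31, Gbp3 -0.21 to 0.40, Ifi35 -0.18 to 0.0279, Ifih1 -0.0324 to 0.14, Ifit1 -0.22 to 0.18, Irf1 -0.29 to 0.13, Irf3 -0.10 to 0.12, Irf7 -0.0357 to 0.39, Irf9 -0.25 to 0.19, Mavs -0.24 to 0.16, Oas1a -0.31 to 0.10, Oas2 -0.0837 to 0.13, Oas3 -0.12 to 0.46, Parp14 -0.0431 to 0.0014, Psmb8 -0.0414 to 0.26, Rtp4 -0.16 to 0.46, Tap1 -0.0598 to 0.68, Zbp1 -0.76 to 0.34. Isg15, Oas3, Zbp1 and Mx2 rest on under 50 reads a heart.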

Other observations

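Of the 33 genes, 25 (75.8%) were lower in both mouse 585H and mouse 586H than in every one of the 4 compared hearts, against 8.79% of all genes tested. Both were above every compared heart for 0 genes of the module, against 8.69% of all genes. Isg15 had 3.50 normalized counts in mouse 585H and 1.36 in mouse 586H. In the same order Rsad2 had 251 and 202, Usp18 had 28.9 and 14.9, and Oasl2 had 113 and 82.7. Mouse 585H is titled as a control and mouse 586H as a knockout, while their genotype fields say the opposite. Their values were set beside the 4 compared hearts, and entered no test or fold change. Ssbp1 had 152 normalized counts in mouse 585H and 211 in mouse 586H, and the mitochondrial share of reads was 56.2% and 63.6% in the same order, and neither value was used to assign a genotype. Their libraries held 23524463 and 18718499 reads, and each was combined from 2 technical runs.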
